A study of Mus musculus with 8 samples.

Results

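The genes described here encode the proteins of the cytosolic ribosome. Their members were taken from the deposited expression table by symbol, as every entry named Rpl or Rps with a number and at most one closing letter (a, b, l or x), together with Rplp0, Rplp1, Rplp2 and Rpsa. The rule found 80 genes among 23846 entries, of which 49 encode proteins of the large (60S) subunit and 31 proteins of the small (40S) subunit. The rule used symbols alone, but the list was drawn up with earlier results of these data known. Where a symbol had several entries, the one with the highest mean was used. The question put to them was whether bone marrow cells of TOX knockout mice carried different amounts of ribosomal protein mRNA from those of wild-type mice.

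TOX is a DNA-binding protein of the HMG-box family that the precursors of innate lymphoid cells (ILCs) need in order to develop. The series holds 4 TOX knockout libraries and 4 wild-type libraries, each made from total RNA of cells sorted from mouse bone marrow, amplified with a SMARTer ultra-low-input kit and read by Ion Proton sequencing. For the knockout, the labels state neither the allele nor a Cre driver, and they give no strain, age, sex, treatment or sort markers. They do not say whether each library came from its own mouse, so p-values measure the spread between these libraries, which may be partly technical. The libraries are called by the numbers in the table's column names (10, 11, 16 and 29 in each genotype). The labels do not say whether a shared number pairs libraries, and the main comparison treats them as unpaired.

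A ribosome holds 1 copy of nearly every ribosomal protein, and the genes for them are transcribed and translated in concert. Most of their mRNAs begin with a 5′ terminal oligopyrimidine (TOP) tract, a C followed by a run of C and U, through which LARP1 and the mTORC1 kinase control their translation. Lymphoid progenitors that divide and grow depend on a high output of ribosomes. Haploinsufficiency of single ribosomal protein genes causes Diamond-Blackfan anaemia in humans, a failure of red cell production.

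To show what a pyrimidine tract looks like at or near an annotated start site, 7 of the members described below are printed first, chosen among those in which a tract was found. Each line holds 15 bases before and 15 bases from the RefSeq transcription start (GRCm38.p6), read 5′ to 3′ on the gene's strand, with the tract in capitals. The tract begins at the annotated start in Rps27, Rps21, Rplp2 and Rpl35a. It begins 1 base after the start in Rps27l, 4 bases after it in Rps2 and 3 bases before it in Rps9.
Rps27, chr3:90213634-90213663, minus strand: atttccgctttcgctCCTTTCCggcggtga
Rps2, chr17:24720048-24720077, plus strand: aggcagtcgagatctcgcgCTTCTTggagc
Rps21, chr2:180257364-180257393, plus strand: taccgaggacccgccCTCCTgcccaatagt
Rps27l, chr9:66946071-66946100, plus strand: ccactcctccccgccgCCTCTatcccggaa
Rplp2, chr7:141447636-141447665, plus strand: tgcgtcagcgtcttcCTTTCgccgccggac
Rpl35a, chr16:33056467-33056496, plus strand: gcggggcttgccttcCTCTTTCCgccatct
Rps9, chr7:3704026-3704055, plus strand: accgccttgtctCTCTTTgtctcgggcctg
A tract was counted where a C followed by 4 letters, each C or T, began within 5 bases of the start on the transcribed strand. RefSeq promoter entries matched 60 of the 80 members, and 28 of these (46.7%) held a tract, against 5718 of 27025 genes (21.2%). The match describes the letters at an annotated start and does not show where transcription began in these cells.

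The table holds FPKM values, fragments counted per length of transcript and per depth of library, so a level is per length. Levels of different genes can be compared only roughly, because the handling of reads shared with near copies is not known. Of the 80 members, 77 had a mean of at least 1 FPKM over the 8 libraries and entered the test, among 10693 genes in all. The summed FPKM of a library ranged from 208351 to 632604 in TOX knockout and from 296777 to 365906 in wild type, and the number of genes at 1 FPKM or more ranged from 7328 to 10600 in TOX knockout and from 10425 to 10481 in wild type. The lowest of these counts was in knockout library 16 and the next in knockout library 29, and both stood apart from the other 6. Read depth per library is unknown. Tox itself checked the labels, with 2.34, 0.107, 0.928 and 0.242 FPKM in TOX knockout libraries 10, 11, 16 and 29, against 107, 119, 123 and 92.4 FPKM in wild-type libraries 10, 11, 16 and 29 (log2 fold change -6.001, SE 0.41, adjusted p = 8.48e-06).

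Shares of the markers of other cell types were set side by side, and no test of the shares was made. Only the neutrophil and granulocyte shares did not overlap, each knockout library lying above each wild-type library. Globin transcripts took 25.6%, 6.18%, 20.9% and 58.6% of summed FPKM in TOX knockout libraries 10, 11, 16 and 29, against 3.67%, 3.42%, 14.8% and 5.52% in wild type. The 16 neutrophil and granulocyte markers took 3.82% to 7.82% of summed FPKM in TOX knockout and 0.0814% to 2.68% in wild type. The 14 erythroid markers, which hold some but not all of the globin entries, took 3.10% to 28.8% in TOX knockout and 1.72% to 7.38% in wild type. The 12 monocyte and macrophage markers in the table took 0.153% to 0.506% in TOX knockout and 0.0463% to 0.230% in wild type, and the 13 B lineage and plasma cell markers took 0.0520% to 0.250% in TOX knockout and 0.0357% to 0.118% in wild type. No gene of these 4 lists passed the test, but 16 of 16, 14 of 14, 8 of 10 and 10 of 11 of those tested had a log2 fold change above 0, with medians of 2.95, 1.64, 1.57 and 1.21. After median-ratio rescaling, described below, 1 neutrophil gene, the collagenase Mmp8, and 1 monocyte gene, the transcription factor Irf8, were higher in TOX knockout (adjusted p = 0.0348 and 0.0134). The neutrophil granule genes Elane, Prtn3 and Ctsg were listed at 0 in wild-type library 29. The 14 ILC progenitor markers took 0.0243% to 0.173% of summed FPKM in TOX knockout and 0.698% to 1.10% in wild type. Of these 14, 0 had a log2 fold change above 0, with a median of -3.61. At an adjusted p under 0.05, 11 of them passed the test as lower in TOX knockout, against 1.72% of all genes tested. In such bulk samples, fewer cells of a type and less RNA per cell cannot be told apart, and the part of these cell types in the ribosomal protein values was not tested.

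No ribosomal protein gene passed the test between TOX knockout and wild type. The median FPKM of the 77 members was 203, 201, 98.0 and 145 in TOX knockout libraries 10, 11, 16 and 29, against 145, 206, 170.2 and 253 in wild-type libraries 10, 11, 16 and 29. The lowest median was that of knockout 16 and the highest that of wild-type 29, while the other 6 libraries overlapped between genotypes. The genotypes were compared with limma on log2(FPKM + 1), adjusting p over all genes tested. At an adjusted p under 0.05, 184 genes (1.72%) were lower and 21 genes (0.196%) higher in TOX knockout, and 0 of the 77 members were called in either direction, the lowest adjusted p being 0.102, for Rps27. At an unadjusted p under 0.05, 1872 genes (17.5%) were lower and 333 genes (3.11%) higher, among them 3 members lower (Rps27, Rpl3 and Rps3) and 0 higher.

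The members' log2 fold changes had a median of -0.33, against -0.52 for all genes tested. They were below 0 for 64 of the 77 members and for 78.5% of all genes tested, so the members and the rest of the transcriptome lay mostly on the same side. When FPKM were rescaled by the median ratio of genes between libraries, which put the median of all genes at -0.04, the members' median became 0.28, with 13 of 77 below 0 against 52.5% of all genes. Their sign therefore depended on the scaling. No member was called after that rescaling either, when 119 genes (1.11%) were lower and 93 genes (0.87%) higher.

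Single libraries moved the members' median. It was -0.10 without knockout library 16, -0.17 without wild-type library 29 and -0.49 without knockout library 10. The median of all genes tested was then -0.26, -0.48 and -0.64, against -0.52 with all libraries. Without knockout libraries 16 and 29 together, the members' median was 0.07, with 28 members below 0, and that of all genes -0.03. Knockout library 16 gave the lowest value of 51 of the 77 members and knockout library 10 the highest of 12. Wild-type library 10 gave the lowest value of 19 members, and wild-type library 29 the highest of 53. Over all genes tested, the median log2(FPKM + 1) was also lowest in knockout library 16 (1.85) and highest in wild-type library 29 (3.26).

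The share of summed FPKM taken by the 80 genes was 6.08%, 8.77%, 7.63% and 3.60% in TOX knockout libraries 10, 11, 16 and 29, against 7.32%, 9.93%, 7.25% and 11.3% in wild type. Library 29 held the lowest share of the knockout group and the highest of the wild-type group, and the groups otherwise overlapped. With globin transcripts left out of the sum, the shares were 8.17%, 9.35%, 9.65% and 8.70% in TOX knockout and 7.60%, 10.3%, 8.51% and 11.97% in wild type. The 4 knockout shares then lay inside the wild-type range. The members' median on the log2 scale stood 4.57, 4.46, 4.78 and 4.67 above the library's median over all genes tested in TOX knockout libraries 10, 11, 16 and 29, against 4.03, 4.51, 4.27 and 4.73 in wild type.

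**Figure D1:**
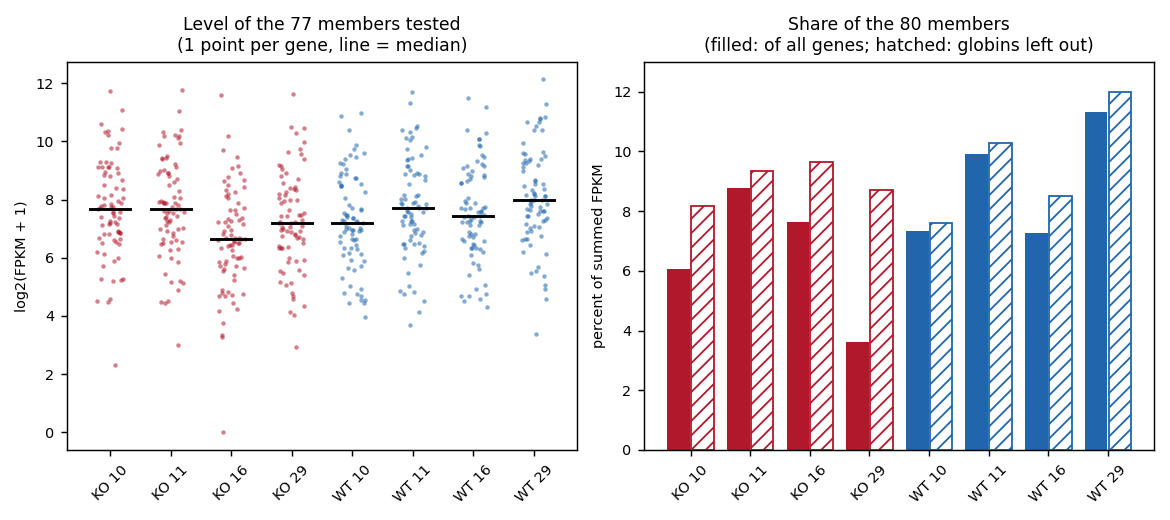
Left, level of the 77 tested ribosomal protein genes in each library, as log2(FPKM + 1), 1 point per gene with a line at the median; right, percent of summed FPKM taken by all 80 genes, of all genes (filled) and with globins left out (hatched). TOX knockout libraries stand left of wild-type libraries. Knockout library 16 has the lowest median (98.0 FPKM) and wild-type library 29 the highest (253 FPKM), and the remaining libraries overlap between genotypes.

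The precision of the test set what could be read from single members. The standard error of a member's log2 fold change had a median of 0.37 and ranged from 0.31 to 0.95. The 95% interval lay within a 2-fold change in either direction for 25 members, against 7.29% of all genes tested. For the members outside these 25 a 2-fold difference was not excluded at this spread. The interval left out 0 for 3 members, each lower in TOX knockout, against 17.5% of all genes tested lower and 3.11% higher.

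The order of the members' levels was shared by all libraries. Spearman's rho between the member levels of any pair of libraries ranged from 0.852 to 0.979, across 77 genes that are not independent replicates and share each library's depth and amplification. Mean levels ran from 18.3 FPKM (Rpl26) to 3224 FPKM (Rpl41) with a median of 180 FPKM, and 58 members had a mean of at least 100 FPKM. The 8 most abundant members, among them Rpl41, Rpl32, Rps9, Rplp1 and Rpl39, held 43.7% of the FPKM summed over members.

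Rpl41, the shortest ribosomal protein with a coding sequence of 75 bases, had 3414, 3446, 3113 and 3149 FPKM in TOX knockout libraries 10, 11, 16 and 29, against 2007, 3297, 2896 and 4475 FPKM in wild-type libraries 10, 11, 16 and 29. The knockout values lay inside the wild-type range (log2 fold change 0.11, SE 0.35, adjusted p = 0.857). Rpl32, a 60S protein, had 2155, 2127, 712 and 1432 FPKM in TOX knockout and 1876, 2538, 2296 and 2464 FPKM in wild type, so that knockout library 16 was far below the rest (log2 fold change -0.63, SE 0.40, adjusted p = 0.355). Rps9, a 40S protein near the mRNA entry channel, had 1563, 1336, 834 and 1008 FPKM in TOX knockout and 1352, 1396, 1337 and 1829 FPKM in wild type. Its groups overlapped (log2 fold change -0.35, SE 0.34, adjusted p = 0.516). Rpl39, which lines the exit tunnel of the 60S subunit, had 1297, 1115, 481 and 1253 FPKM in TOX knockout and 525, 1126, 911 and 1783 FPKM in wild type, the lowest value of all in knockout library 16 and the next lowest in wild-type library 10.

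**Figure D2:**
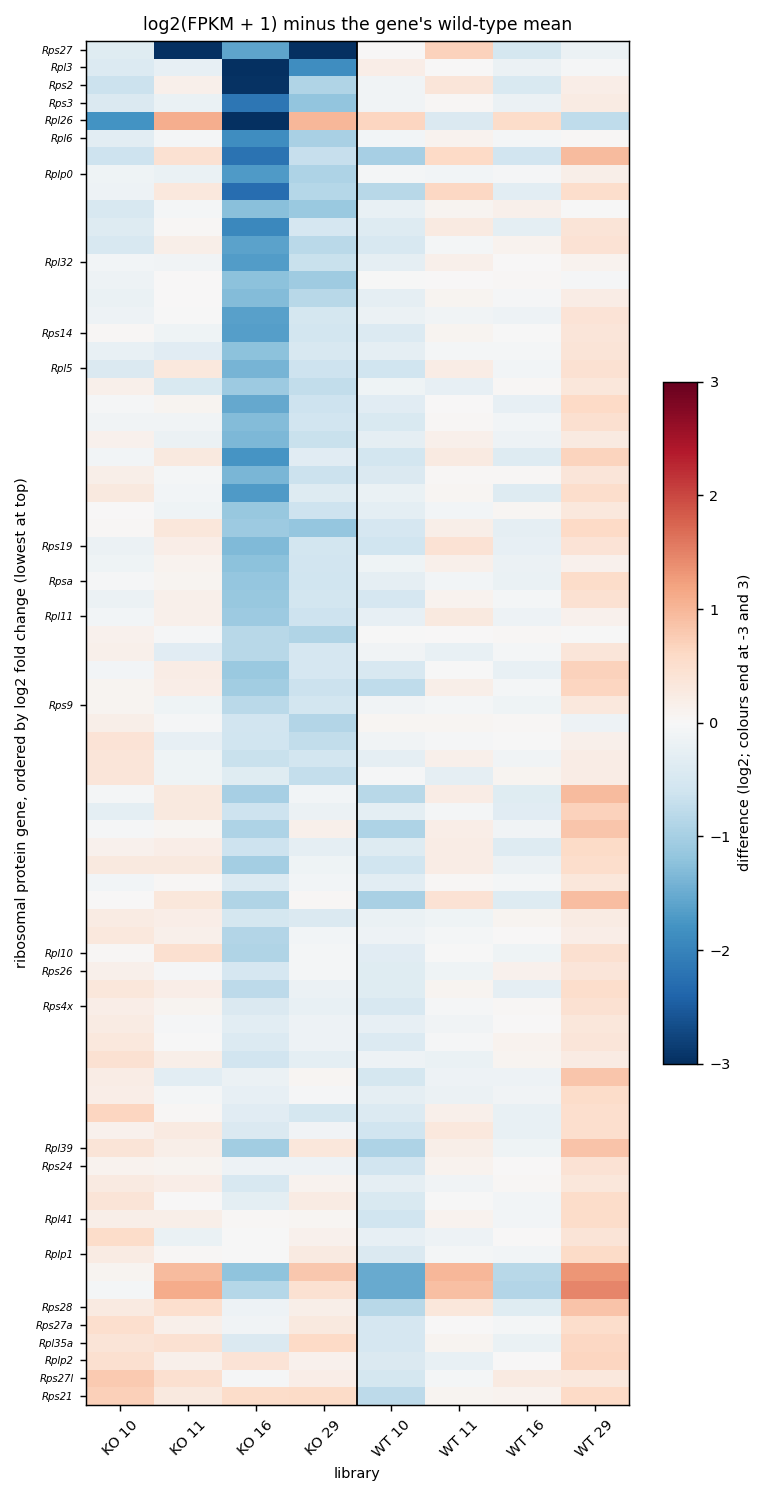
Each tested ribosomal protein gene (rows) in each library (columns, TOX knockout left of wild type), coloured by its log2(FPKM + 1) minus that gene's wild-type mean, with colours ending at -3 and 3 and only some of the genes labelled. Knockout library 16 holds the lowest value of 51 of the 77 genes and wild-type library 29 the highest of 53.

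The subunits were compared by their medians. The median log2 fold change was -0.36 over the 46 tested 60S members and -0.14 over the 31 tested 40S members, and after median-ratio rescaling 0.24 and 0.47. Among the stalk proteins, which recruit translation factors to the 60S subunit, Rplp0 had 445, 420.3, 148 and 254 FPKM in TOX knockout libraries 10, 11, 16 and 29, against 469, 455, 474 and 549 FPKM in wild type. All 4 knockout values lay below all 4 wild-type values (log2 fold change -0.74, SE 0.39, adjusted p = 0.282), and Rplp0 was 1 of 3 members, with Rps3 and Rpl3, for which the groups did not overlap in this direction, against 11% of all genes tested. In the other direction the groups did not overlap for 0 members and for 1.09% of genes. The stalk partners Rplp1 and Rplp2, which bind Rplp0 as dimers, lay on the other side of 0 as the table stands. Rplp1 had 1362, 1186, 1150.5 and 1402 FPKM in TOX knockout and 857, 1110.2, 1085 and 1732 FPKM in wild type (log2 fold change 0.14, adjusted p = 0.806). Rplp2 had 337, 267, 318 and 262 FPKM in TOX knockout and 178, 206, 244 and 374 FPKM in wild type (log2 fold change 0.29, adjusted p = 0.584), and its value was -0.07 in libraries 11 and 29 alone. Rpsa, the 40S protein also known as the laminin receptor, had 215, 234, 98.3 and 145 FPKM in TOX knockout and 183, 209, 191 and 325 FPKM in wild type (log2 fold change -0.43, adjusted p = 0.470).

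A list of members mutated in Diamond-Blackfan anaemia was described whatever their values, and it does not hold all such members. Rps19, Rpl5, Rpl11, Rpl35a, Rps24 and Rps26 had log2 fold changes between -0.54 and 0.25 and adjusted p between 0.421 and 0.959. Rps14, placed in the same list though not an established gene of that disease, was at -0.57 (adjusted p = 0.395). Rps19, the gene most often mutated in that disease, had 985, 1268, 442 and 757 FPKM in TOX knockout libraries 10, 11, 16 and 29, against 732, 1489, 937 and 1476 FPKM in wild type. Rpl5 and Rpl11, which carry 5S rRNA into the 60S subunit and bind Mdm2 when assembly fails, averaged 53.3 ± 25.9 and 98.5 ± 35.9 FPKM in TOX knockout, against 74.0 ± 22.3 and 126 ± 21.6 FPKM in wild type (SD, n = 4 each). For these 3 genes the difference between the means was smaller than the SD of the knockout libraries.

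Rps27 (chr3:90212667-90213648 in the table's mm10 coordinates), whose product sits at the 40S platform and whose start site with its CCTTTCC tract is printed above, had the most negative log2 fold change of the family. It had 115, 6.97, 48.9 and 6.57 FPKM in TOX knockout libraries 10, 11, 16 and 29, against 151, 240.3, 103 and 131 FPKM in wild-type libraries 10, 11, 16 and 29. The 2 lowest values were those of knockout libraries 11 and 29, and knockout library 10 lay above wild-type library 16. The log2 fold change was -2.62 (SE 0.76, 95% interval -4.26 to -0.99, adjusted p = 0.102). The adjusted p was 0.0191 without knockout library 10, which held the highest knockout value. With any other single library left out, the limma adjusted p lay between 0.0899 and 0.329, and without a filter it was 0.379. Besides the fit without knockout library 10, it was under 0.05 with every library scaled to the same summed FPKM (adjusted p = 0.0360). The same held in libraries 11 and 29 alone (adjusted p = 0.0330). After median-ratio rescaling the value was -2.01 with an adjusted p of 0.236.

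Its close paralog Rps27l, a p53-responsive gene whose product can take the place of Rps27 in the ribosome, was among the 6 most positive members. Rps27l had 277, 224, 157 and 185 FPKM in TOX knockout libraries 10, 11, 16 and 29, against 111, 153, 193 and 201 FPKM in wild type. The groups overlapped (log2 fold change 0.36, SE 0.34, adjusted p = 0.506). Rps27l made up 70.6%, 97.0%, 76.2% and 96.6% of the summed FPKM of the pair in TOX knockout, against 42.3%, 38.8%, 65.3% and 60.5% in wild type, so the 4 knockout shares lay above the 4 wild-type shares. This share does not depend on the scaling between libraries, but it was computed after the values of both genes had been seen and was not tested. The coding sequences of both genes are 252 bases long and 76.2% identical, and how the authors' counting divided reads shared with this or other near copies is not known.

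The other members of most negative fold change were Rpl3, Rps2, Rps3, Rpl26 and Rpl6. Rpl3, a 60S protein near the peptidyl transferase centre, had 174, 194, 24.4 and 63.1 FPKM in TOX knockout libraries 10, 11, 16 and 29, against 264.9, 232, 205 and 227 FPKM in wild type. The groups did not overlap, and knockout libraries 16 and 29 were the lowest (log2 fold change -1.43, SE 0.56, 95% interval -2.63 to -0.22, adjusted p = 0.191). Rps3, at the mRNA entry channel, had 475, 557, 142 and 282 FPKM in TOX knockout and 595, 656, 564 and 756 FPKM in wild type, again without overlap (log2 fold change -0.99, SE 0.43, adjusted p = 0.221). Rps2, also at the entry channel, had 141, 248, 27.3 and 119 FPKM in TOX knockout and 208, 284, 161 and 255 FPKM in wild type, with knockout library 11 inside the wild-type range (log2 fold change -1.09, SE 0.56, adjusted p = 0.275). Rpl6, on the surface of the 60S subunit, had 144, 172, 48.3 and 89.97 FPKM in TOX knockout and 169.6, 193, 170.2 and 182 FPKM in wild type, where only knockout library 11 reached the wild-type values (log2 fold change -0.80, SE 0.40, adjusted p = 0.270).

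Rpl26, a 60S protein close to the exit tunnel, had 4.03, 36.2, 2.96e-05 and 33.97 FPKM in TOX knockout libraries 10, 11, 16 and 29, against 26.5, 11.9, 24.4 and 9.36 FPKM in wild type. Its knockout values were below wild type in libraries 10 and 16 and above it in libraries 11 and 29. A value as low as that of knockout library 16, in a gene that every cell uses, can be a failed estimate. The log2 fold change over all libraries was -0.96 (SE 0.95, adjusted p = 0.523), and it was 0.10 without knockout library 16.

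**Figure D3:**
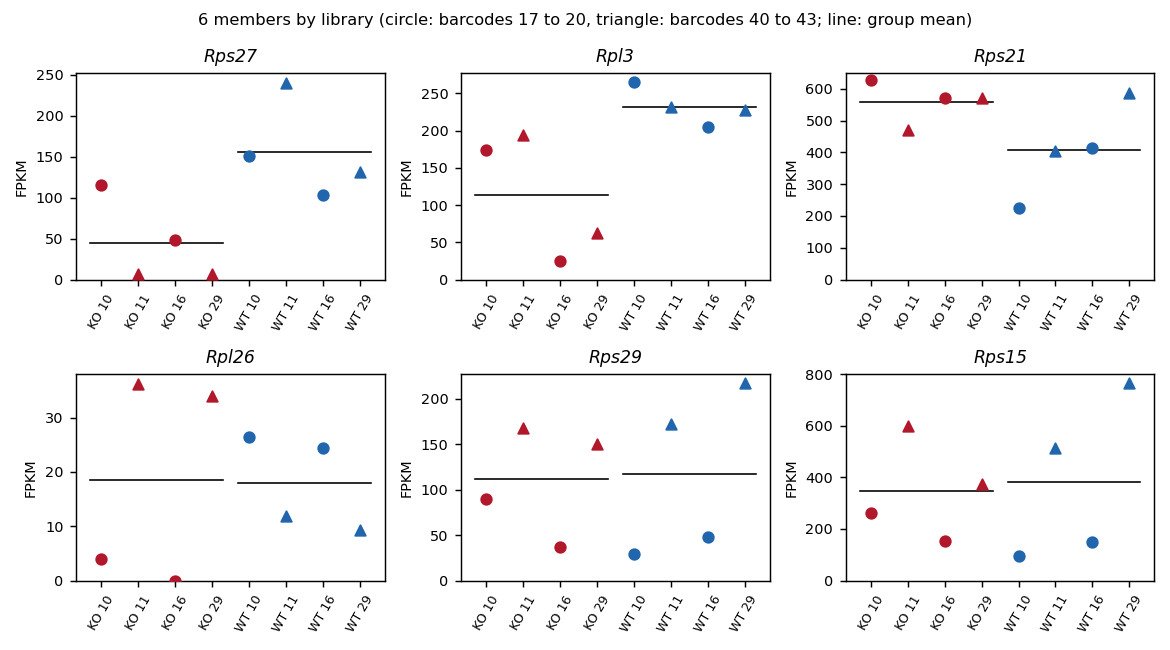
FPKM of Rps27, Rpl3, Rps21, Rpl26, Rps29 and Rps15 in each library, on a linear axis from 0, with TOX knockout left of wild type, a line at each group mean and the marker shape giving the barcode set. Rps27 is at 6.97 and 6.57 FPKM in knockout libraries 11 and 29, against 240.3 and 131 FPKM in wild-type libraries 11 and 29.

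At the positive end stood Rps21, Rps27l, Rplp2, Rpl35a, Rps27a and Rps28. Rps21, a 40S protein with a coding sequence of 249 bases, had 629, 469, 569.6 and 571 FPKM in TOX knockout libraries 10, 11, 16 and 29, against 225, 405, 413 and 586 FPKM in wild type. Wild-type library 29 lay among the knockout values and the other 3 wild-type libraries below them (log2 fold change 0.53, SE 0.36, 95% interval -0.24 to 1.30, adjusted p = 0.375). Rpl35a, a 60S protein, had 111, 115, 61.9 and 127 FPKM in TOX knockout and 59.1, 89.7, 72.5 and 129.6 FPKM in wild type (log2 fold change 0.25, adjusted p = 0.672). Rps27a, made as a fusion with ubiquitin, averaged 114 ± 20.5 FPKM in TOX knockout and 100.2 ± 30.1 FPKM in wild type (SD, n = 4 each), and Rps28 averaged 255 ± 46.7 FPKM in TOX knockout and 241 ± 121 FPKM in wild type. The values of Rps27a and Rps28 changed sign when every library was scaled to the same summed FPKM.

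Members were also compared with the rest of their own family, by subtracting each library's median over the members from all genes of that library before the fit. At an adjusted p under 0.05, 143 genes (1.34%) were then lower and 51 genes (0.477%) higher in TOX knockout, and 0 members were called. At an unadjusted p under 0.05, 5 members stood apart, against 19% of all genes tested. These were Rps27 (-2.34, adjusted p = 0.151), Rpl3 (-1.14, adjusted p = 0.172) and Rps3 (-0.70, adjusted p = 0.175) below the family, and Rps21 (0.82, adjusted p = 0.176) and Rps27l (0.65, adjusted p = 0.191) above it, the values being log2 differences.

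**Figure D4:**
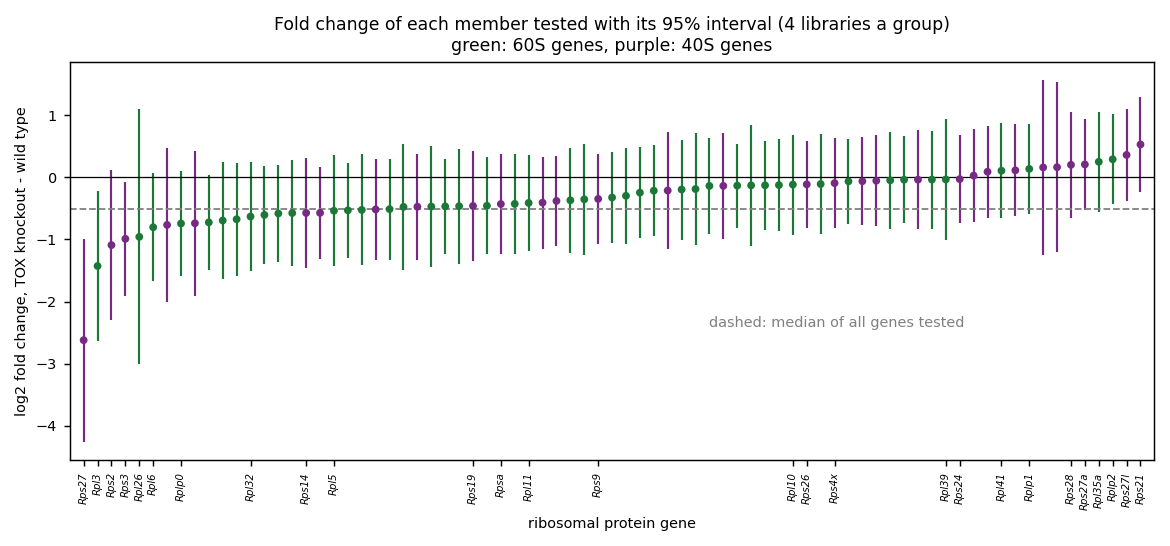
Log2 fold change, TOX knockout over wild type, of each tested ribosomal protein gene with its 95% interval, 60S genes in green, 40S genes in purple and the median of all genes tested dashed and only some of the genes labelled. Of the 77 genes, 64 lie below 0, as do 78.5% of all genes tested. The interval leaves out 0 for Rps27, Rpl3 and Rps3, each lower, against 17.5% of all genes tested lower and 3.11% higher.

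Fold change followed the length of the coding sequence within the family. Across the 77 members Spearman's rho between log2 fold change and coding length was -0.59, against -0.05 across the 9578 tested genes with a coding length in GENCODE M21. The 26 members of at most 400 bases had a median log2 fold change of -0.04, with 15 below 0. The 38 members over 400 and up to 700 bases had a median of -0.40, with 36 below 0, and the 13 members over 700 bases, such as Rpl3, Rps2, Rps3, Rpl6 and Rplp0, had a median of -0.54, with 13 below 0. All tested genes of the same lengths had medians of -0.26, -0.47 and -0.54. The medians of the 3 length classes ran in the same order in both sets, while rho was near 0 across all genes.

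The relation of fold change to length was also computed without the libraries that stood apart. Without knockout library 16 rho across members was -0.60 and the medians of the 3 length classes were 0.12, -0.18 and -0.27, and without knockout libraries 16 and 29 rho was -0.50 and the medians were 0.18, 0.06 and -0.07. Library by library, each set against the mean of the wild-type libraries other than itself, rho was -0.52, -0.17, -0.50 and -0.60 in TOX knockout libraries 10, 11, 16 and 29, against 0.35, 0.00, -0.09 and -0.27 in wild type. The same rho across all 9578 genes was -0.12, 0.01, 0.04 and -0.08 in TOX knockout, against 0.06, -0.01, -0.02 and -0.03 in wild type. Across members, the rho of knockout library 11 (-0.17) lay inside the wild-type range. Without knockout libraries 16 and 29, only it and knockout library 10 (-0.52) remained in the knockout group. No wild-type library was left out of this comparison. The members share each library's depth, amplification and fragment lengths, and the part of these in the relation was not tested. By the letters at the annotated start, the median log2 fold change was -0.22 over 28 tested members with a tract and -0.22 over 29 without. Most of these mRNAs are of the TOP class, so this split by annotation cannot separate TOP from other mRNAs.

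**Figure D5:**
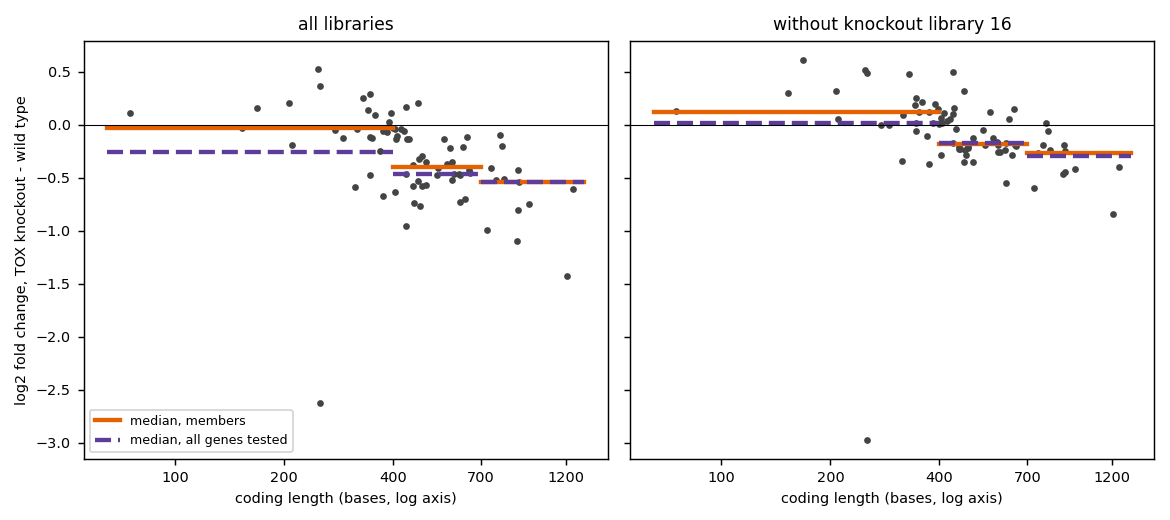
Log2 fold change, TOX knockout over wild type, of each tested ribosomal protein gene (points) against the length of its coding sequence in bases on a log axis, with all libraries (left) and without knockout library 16 (right). Lines are the medians of each length class, over members (solid) and over all genes tested (dashed). With all libraries, members of at most 400 bases have a median of -0.04 and members over 700 bases a median of -0.54, with Spearman's rho at -0.59 across 77 genes.

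The column names also carry sequencing barcodes, which fall into 2 sets. Libraries 10 and 16 of both genotypes have barcodes 17 to 20 and libraries 29 and 11 of both genotypes have barcodes 40 to 43, and nothing in the labels says what separated the sets. A further code in the names is the same in all wild-type columns and different in the knockout columns, where library 11 carries another code than the rest. Its meaning is not given, and it cannot be told apart from genotype. Within libraries 10 and 16 the members' median log2 fold change between TOX knockout and wild type was -0.19, against -0.63 for all genes, and within libraries 11 and 29 it was -0.46, against -0.38 for all genes. Between the barcode sets themselves, barcodes 40 to 43 over 17 to 20, the members' median log2 difference was 0.36, against 0.20 for all genes tested. At an adjusted p under 0.05 limma called 0 genes between the sets, and at an unadjusted p under 0.05 it placed 8 members higher, against 2.43% of all genes, and 0 members lower, against 0.57%.

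The members with the widest gap between the sets, chosen after their values were seen, were Rps29 and Rps15, both of the 40S subunit. Rps29 had 90.2, 167, 36.7 and 151 FPKM in TOX knockout libraries 10, 11, 16 and 29, against 29.4, 173, 47.9 and 218 FPKM in wild type (log2 difference between sets 1.89, SE 0.40, adjusted p = 0.998). Rps15 had 263, 601, 152 and 375 FPKM in TOX knockout and 96.4, 514, 150.4 and 767 FPKM in wild type (log2 difference 1.81, SE 0.40). In both genes and both genotypes libraries 11 and 29 lay above libraries 10 and 16.

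A test of whether the effect of genotype differed between the barcode sets called 1 gene (0.00935%) over all genes and 0 members. At an unadjusted p under 0.05 it called 2 members, Rpl26 and Rps27, against 1.58% of all genes. The log2 fold change of Rps27 was -0.72 in libraries 10 and 16 and -4.52 in libraries 11 and 29 (difference -3.80, SE 0.87, limma adjusted p = 0.9999). That of Rpl26 was -3.56 in libraries 10 and 16 and 1.64 in libraries 11 and 29 (difference 5.20, SE 1.05, limma adjusted p = 0.9999), and it was the 1 member whose groups lay apart in opposite directions in the 2 sets, against 1.6% of all genes tested.

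The tissue-restricted paralogs had the lowest levels of the family, with means under 1 FPKM. Rpl39l, which replaces Rpl39 in the male germ line, had 0, 0, 0.284 and 0.612 FPKM in TOX knockout libraries 10, 11, 16 and 29, against 0.102, 0.779, 0.982 and 3.61 FPKM in wild type. Rpl3l, the paralog of Rpl3 in striated muscle, had 1.01, 0.1004, 0 and 0.0176 FPKM in TOX knockout and 0.220, 0.109, 0 and 0.0211 FPKM in wild type. Rpl10l, the testis paralog of Rpl10, stayed at or below 0.108 FPKM in TOX knockout and 0.165 FPKM in wild type. These were the only 3 members below the filter, and their coding sequences are 85.0%, 73.2% and 84.7% identical to those of Rpl39, Rpl3 and Rpl10. The widely expressed partner Rpl10 averaged 114 ± 41.3 FPKM in TOX knockout and 120.0 ± 31.7 FPKM in wild type (SD, n = 4 each). Rps4x, the X-linked 40S gene, averaged 463 ± 90.8 FPKM in TOX knockout and 499.8 ± 131 FPKM in wild type. Ribosomal protein genes have many processed pseudogenes, of which 6 are listed under a member's symbol with a pseudogene suffix, and reads shared with such copies make every level here uncertain to that extent.

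Genes that act with the ribosome were described in the same way. Among 7 ribosomal proteins and ribosome-bound proteins whose symbols fall outside the naming rule, 0 passed the test and the median log2 fold change was -0.32. Gnb2l1, which encodes the 40S scaffold RACK1, was at -0.67 (adjusted p = 0.373), and Rpl7l1 at -0.62 (adjusted p = 0.361). Among 21 translation factors and other mRNAs of the TOP class, 0 passed and the median was -0.44, with Eif3h, an initiation factor subunit, at -1.08 (adjusted p = 0.191). Among 44 ribosome biogenesis factors, 0 passed and the median was -0.65, with Nop2, an rRNA methyltransferase, at -1.28 (adjusted p = 0.182) and Wdr43, of the small subunit processome, at -1.46 (adjusted p = 0.191).

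The regulators gave no call either. Among 26 genes of mTORC1, MYC and TOP mRNA control, 0 passed and the median log2 fold change was -0.49. Rps6kb2, a kinase of ribosomal protein S6, had 1.78, 3.66, 0.631 and 0.755 FPKM in TOX knockout libraries 10, 11, 16 and 29, against 9.29, 5.41, 4.60 and 7.64 FPKM in wild type. All its knockout values lay below the wild-type values (log2 fold change -1.61, adjusted p = 0.0973). The 76 proteins of the mitochondrial ribosome, a separate family, had a median of -0.56 and 0 passed, Mrpl44 being nearest at -1.52 (adjusted p = 0.0793). After median-ratio rescaling the medians of these 5 lists were 0.30, 0.15, -0.17, 0.01 and 0.02, in the order given, and 0 genes passed.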

How the data were processed

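The deposited values are gene-level FPKM made by the authors with Cufflinks against mm10, per the submitters' processing notes; for the aligner, annotation, version and reads with several matches, the entry is: not given in the sources used here. The kit, platform and an intended minimum of reads are per the labels' protocols. FPKM are not counts and depth is unknown, so no counting intervals are given. Columns were assigned to genotypes by name; single columns could not be tied to single sample labels. Genes with a mean of at least 1 FPKM were tested on log2(FPKM + 1), a scale that understates changes of low genes, with limma 3.58.1 in R 4.3.3 (mean-variance trend, Benjamini-Hochberg adjustment over all genes tested, threshold 0.05, two-sided), after tests on simulated data. Per symbol the entry with the highest mean was used. Coding lengths and identities came from GENCODE M21 (APPRIS principal transcripts), start sites from RefSeq GRCm38.p6. No value column was left unused.

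Members named were the 8 most abundant, the 6 most negative and 6 most positive in fold change, and any called member. Tissue-restricted paralogs with their partners, stalk members, a partial Diamond-Blackfan list, the 2 smallest p of each other list, and Tox were also named. Some members that this rule names are not reported here. Members and lists were chosen with earlier results of these data known. Alternatives covered pseudocount, filter, scaling, weights, barcode set, replicate block and left-out libraries.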

Additional observations from a re-analysis of the deposited data

Results flagged for a closer look

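Rps9 spanned 834 to 1563 FPKM in the TOX knockout libraries, whereas wild-type library 29, at 1829 FPKM, stood far from the other 3 wild-type libraries, at 1352, 1396 and 1337 FPKM. Of 62 such comparisons of a group's farthest library with the rest, 1 passed, and chance passes about 1 in 20. The effect of genotype on Rpl26 differed between the barcode sets, by 5.20 on the log2 scale (libraries 11 and 29 minus libraries 10 and 16), with both knockout values above both wild-type values in one set and below them in the other. This difference missed the threshold after adjustment over all genes, and 171 genes (1.6% of those tested) had groups apart in opposite directions in the same way.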

How the results depend on the processing

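Values rest on 4 libraries a genotype, of unknown depth, and on a scaling that decides the sign of the family's median, 0.28 after median-ratio scaling with or without a replicate block. The cause of each change below was not tested. The count of members lower in TOX knockout was 0 and became 1 (Rps27) with every library at the same summed FPKM, in libraries 11 and 29 alone and with the replicate block, and ranged from 0 to 1 with single libraries left out, the 1 being without knockout library 10. The count of members departing from the family median became 1 without a filter and in libraries 11 and 29 alone. The family median ranged from -0.49 to -0.10 with single libraries left out, and was -0.042 with library weights, -0.076 with quantile normalization, -0.55 at the same summed FPKM and -0.13 with globins left out of that sum.

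Genes higher in TOX knockout numbered 65 at adjusted p under 0.1, 0 in libraries 10 and 16 alone, 2 in libraries 11 and 29 alone, 271 with library weights, 10 with a pseudocount of 0.1, 10 with a minimum of 5 FPKM, 7 without a filter, 93 with median-ratio scaling, 89 with quantile normalization, 55 at the same summed FPKM, 52 with globins left out of that sum, 79 without knockout libraries 16 and 29, and from 6 to 110 with single libraries left out. Genes lower numbered 335, 0, 11, 457, 96, 106, 67, 119 and 441 under the first 8 of these and the same summed FPKM, and from 78 to 490 with single libraries left out.

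Whether the shared column numbers pair the libraries is not stated in the labels, though same-numbered libraries of both genotypes carry neighbouring barcodes. Same-numbered deviations correlated at 0.04 (10), 0.26 (11), 0.01 (16) and -0.02 (29), and only number 11 correlated best with its own number. With so few libraries a group, these correlations cannot decide whether the libraries were paired. With these numbers as a replicate block, 267 genes were lower and 77 higher, and the adjusted p of Rps27 was 0.0259. With the block and median-ratio scaling together, 66 were lower and 43 higher, and Rps27 was not called (adjusted p = 0.218). This pairing changed no other member's call.

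Signs changed for 4 of the members named for their fold change, none of them called. At the same summed FPKM, Rps27a was at -0.018 and Rps28 at -0.026. In libraries 11 and 29 alone, Rpl26 was at 1.64, Rplp2 at -0.070, Rps27a at -0.052 and Rps28 at -0.25. With single libraries left out, Rpl26 ranged from -1.64 to 0.10 and Rps28 from -0.073 to 0.48.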

Other observations

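Further lists bear on ribosome stress and were described by their counts. Of the 11 tested genes of the p53 and ribosomal stress response, 0 passed the test, with a median log2 fold change of -0.75 as deposited and -0.16 after median-ratio rescaling. Cdkn1a, a cell cycle inhibitor and p53 target, was at -1.59 (adjusted p = 0.167) and Sesn1, an inhibitor of mTORC1 and p53 target, at -1.16 (adjusted p = 0.126), while Rps27l, itself a p53 target, was at 0.36. Of the 10 genes that rescue or split stalled ribosomes, 0 passed, with a median of -0.42 and of 0.13 after rescaling. Ltn1 and Nemf, which mark nascent chains on split 60S subunits for decay, were at -0.93 (adjusted p = 0.272) and -0.84 (adjusted p = 0.262).

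Hnrnpa1, an RNA-binding protein whose mRNA belongs to the TOP class, had 0.000208, 0.373, 9.56 and 0.0967 FPKM in TOX knockout libraries 10, 11, 16 and 29, against 19.8, 6.32, 2.99 and 4.16 FPKM in wild type. Knockout library 16 lay above 3 of the wild-type libraries, and a value as low as that of knockout library 10 can be a failed estimate. Its log2 fold change was -1.91 (adjusted p = 0.194 from limma over all genes tested). Mrpl4, of the mitochondrial ribosome, was at -1.02 (adjusted p = 0.136).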
